A study of Homo sapiens with 10 samples.

Results

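The genes described here are 41 heat shock chaperones of the cytosol and the mitochondria, together with their cochaperones and the factors HSF1 and HSF2, measured in 2 related colon cancer cell lines and in THP1 macrophages. A probe set was kept where the array annotation names a single gene symbol and that symbol is 1 of the 41. The probe set with the highest mean over the 10 arrays stood for its gene. This gave values for 37 of the 41 genes, out of 19775 genes measured in the same way. HSPA8 and TCP1 had only probe sets that carry several symbols and were left out, and AHSA1 and HSF2 are not analysed here. HSPB11 is called IFT25 by the annotation and was matched through its RefSeq gene entry. Of the probe sets used, 20 are named s_at and 2 x_at, names given to probe sets that can bind transcripts of related genes or pseudogenes.

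Chaperones keep other proteins folded. HSP70 binds exposed stretches of a client protein under the control of ATP; J-domain proteins deliver clients and speed ATP use, and HSP110 and BAG proteins release the nucleotide so that the cycle starts again. STIP1 passes clients from HSP70 to HSP90, which with CDC37, FKBP4, PTGES3 and CHORDC1 matures kinases and steroid receptors, while the TRiC ring folds actin and tubulin and HSPD1 with its lid HSPE1 folds proteins in the mitochondrial matrix. HSF1 switches many of these genes on in heat or other protein stress, by binding repeats of the letters GAA in alternating orientation, called heat shock elements. Tumour cells, colon carcinoma included, often hold high levels of chaperones.

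Each of the 10 culture conditions was measured on 1 array. HCT116 is a colorectal carcinoma line, and Hke3 is a clone derived from it. Each of these lines was profiled alone, with vitamin D3 (VitD3) for 24 hours, with THP1 macrophages, and with THP1 macrophages and vitamin D3. THP1, a monocytic leukaemia line that the labels call macrophages, naming no agent that differentiated it, was profiled alone and with vitamin D3. In coculture the cells shared medium without touching. HCT116 and Hke3 grew in MEM and THP1 in RPMI, both with fetal bovine serum. The design asks how macrophages and vitamin D3 alter gene expression in the colon cancer lines.

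Values are log2 intensities, so a difference of 1 is a doubling, and the table runs from 2.98 to 15.15. With 1 array a condition, replicates were replaced by the 4 array pairs that share all factors but 1. Errors after ± are standard errors of the fitted model, with each gene's variance drawn toward that of all genes. They and the p-values reflect how the arrays departed from that model, which may be technical, and not the spread of those pairs alone. The comparison of THP1, over 6 arrays, does not have those 4 pairs. A gene passed the test at an adjusted p of 0.05 over all genes tested. All 37 measured chaperones passed the filter on dim genes, since each exceeded 6.18 log2, the median of all values, on at least 1 array.

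Marker genes separated the THP1 arrays from the colon cancer arrays. Marker medians of HCT116 and Hke3 overlapped, and whether THP1 had differentiated was not tested. Over 14 macrophage markers the median was 11.7 in both THP1 arrays and 5.39 to 5.69 in the colon cancer arrays, and over 10 epithelial markers it was 4.74 and 4.86 in THP1 and 11.3 to 11.8 in the colon cancer arrays. All 14 macrophage markers exceeded 6.18 in THP1, against 6 in Hke3 with coculture and vitamin D3 and 4 or 5 in the other colon cancer arrays. The ACTB 3' minus 5' difference, which rises as RNA quality falls, was 0.16 to 0.30 in HCT116, 0.56 to 0.94 in Hke3 and -0.01 and 0.09 in THP1. The same difference for GAPDH was -0.0995 to -0.0951 in HCT116, -0.00138 to 0.0625 in Hke3 and -0.1047 and -0.1075 in THP1. CYP24A1, the vitamin D receptor's main target, went against the vitamin D3 labels in both cocultures. It was 9.99 in HCT116 alone and 11.44 with vitamin D3, but 10.68 in HCT116 coculture and 9.70 in the coculture labelled with vitamin D3. The corresponding values in Hke3 were 10.89, 12.34, 12.25 and 10.89, and in THP1 they were 4.51 and 10.40. Values of a coculture averaged over its arrays with and without the vitamin D3 label do not depend on that label. Standard errors, p-values, single pairs and the tests of vitamin D3 do depend on it.

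Across the 8 colon cancer arrays the chaperones differed in how much they varied, and HSPD1 and CCT4 varied least. HSPD1 spanned 14.36 to 14.52, close to the top of the table's range, and CCT4 spanned 13.28 to 13.48. HSPH1 varied most, from 10.10 in Hke3 coculture to 11.73 in HCT116 alone. DNAJB4 followed with a span of 1.14, then HSPB8 with 0.89 and HSPB1 with 0.82. The map of values by array shows HSPH1 in steps, with both lines and both culture states apart. It also shows DNAJB4, DNAJB6 and HSPB1 on the higher side in Hke3, and most other rows below their means in the HCT116 coculture arrays.

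**Figure D1:**
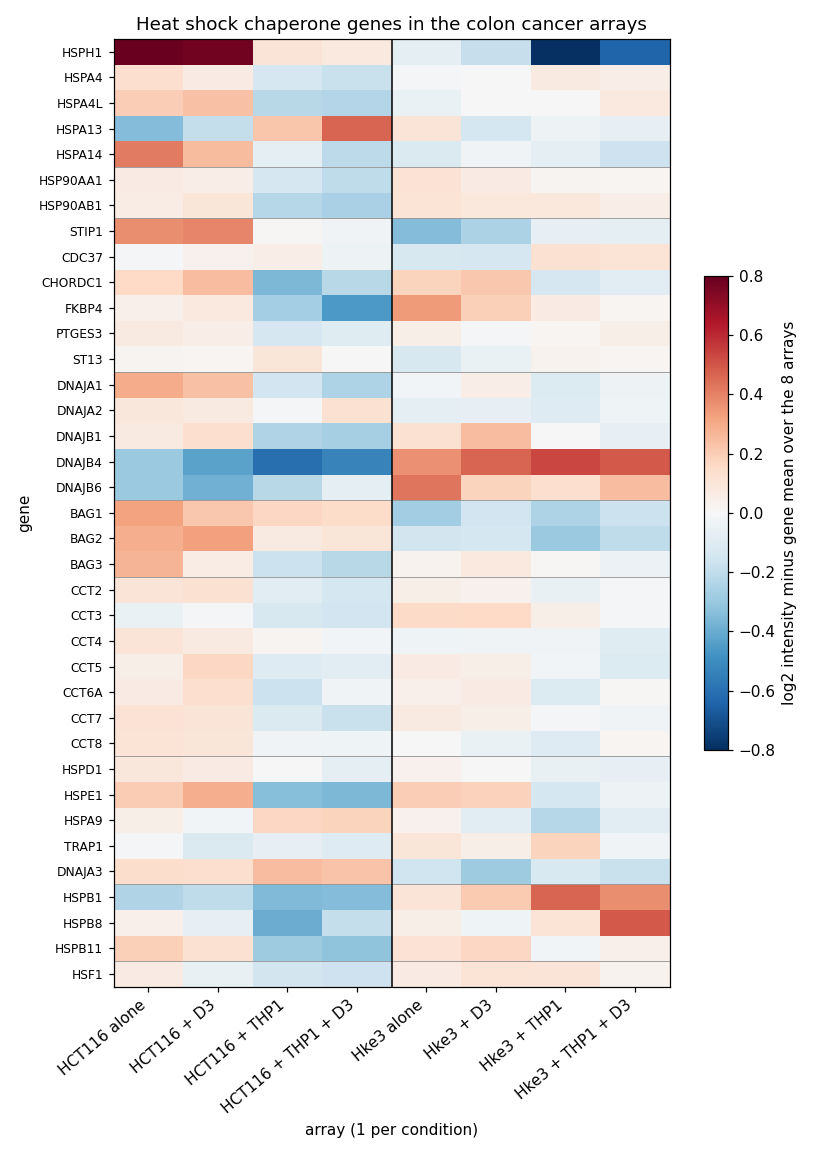
Each cell is the log2 intensity of 1 of the 37 measured chaperone genes (rows, grouped by role) on 1 of the 8 colon cancer arrays (columns), minus the gene's mean over these arrays; red is above the mean and blue below. HSPH1 runs from 11.73 in HCT116 alone down to 10.10 in Hke3 with THP1 macrophages, the widest span of any row.

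With coculture, 5 of the 37 chaperones fell and none rose: the HSP110 protein HSPH1, the mitochondrial lid HSPE1, the HSP90 cochaperones CHORDC1 and FKBP4, and the J-domain protein DNAJB1. The share was 13.5%, against 7.82% of all 13243 genes tested, with 4.05% falling and 3.76% rising. The fitted difference was below 0 for 29 of the 37, with a median of -0.10, where 54.7% of all genes tested lay below 0 with a median of -0.02. At an unadjusted p of 0.05 it was 17 of 37, or 45.9%, against 26.2% of all genes. The chaperones were chosen with earlier results of these data known, so shares here and below describe the set without testing it. Macrophage marker medians in the coculture arrays were 5.43 and 5.54 in HCT116 and 5.40 and 5.69 in Hke3, against 5.39 to 5.56 without coculture. The marker SRGN was higher with coculture in 4 of 4 pairs, by 0.49 and 0.20 in HCT116 and by 0.18 and 1.90 in Hke3. It reached 6.28 in Hke3 coculture with vitamin D3, against 13.90 and 14.05 in THP1. The marker ITGB2 was lower in 4 of 4 pairs but was too dim to be tested. Of the 6 macrophage markers bright enough to be tested, 3 had fitted differences above 0 and 3 below, and none passed. With coculture, ACTB gave lower 3' minus 5' values in both lines, 0.16 and 0.23 against 0.30 and 0.25 in HCT116 and 0.62 and 0.56 against 0.94 and 0.72 in Hke3. In HCT116 the GAPDH values hardly moved, -0.0951 and -0.0966 with coculture against -0.0961 and -0.0995 without. In Hke3 they were -0.00138 and 0.0196 against 0.0625 and 0.0415. The part of the macrophage markers or of these control values in the coculture differences was not tested. In a bulk array, fewer cells of a type and less RNA per cell cannot be told apart.

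HSPH1, which prevents aggregation and releases nucleotide from HSP70, fell by 0.65 ± 0.06 on the log2 scale, or 1.57-fold (adjusted p = 0.0134, lower in 4 of 4 pairs). It read 11.73 in HCT116 alone and 11.71 with vitamin D3, then 11.04 in coculture and 11.02 in coculture with vitamin D3. In Hke3 it read 10.86 and 10.76, then 10.10 and 10.30. Within each line both coculture arrays were below both others, by a similar distance. The pairs differed by -0.69 and -0.69 in HCT116 and by -0.76 and -0.46 in Hke3, and the other bright probe sets of the gene gave -0.84 and -0.59. The other HSP70 relatives did not pass. HSPA4, a second HSP110 protein, differed by -0.10 ± 0.07, HSPA4L by -0.19 ± 0.10 and HSPA14, which sits with ribosomes, by -0.26 ± 0.09. HSPA13, a microsomal HSP70-like ATPase, leaned the other way (0.29 ± 0.14).

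HSPE1, the mitochondrial HSP10, read 12.93 and 13.02 in HCT116 without coculture and 12.39 and 12.37 with it, the second value of each pair with vitamin D3. In Hke3 it read 12.93 and 12.91 without and 12.59 and 12.69 with coculture. All 4 coculture arrays were below all 4 others. The fitted fall was 0.44 ± 0.08, or 1.36-fold (adjusted p = 0.0188, lower in 4 of 4 pairs). Its partner HSPD1, the HSP60 barrel, is transcribed from the same stretch of DNA in the opposite direction. HSPD1 differed by -0.10 ± 0.05 (adjusted p = 0.249), with values near the top of the array's range. The other mitochondrial chaperones were close to 0. The mitochondrial HSP70 HSPA9 differed by 0.01 ± 0.08, the mitochondrial HSP90 TRAP1 by -0.01 ± 0.05 and the J-domain protein DNAJA3 by 0.09 ± 0.05.

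CHORDC1, a zinc-binding partner of HSP90, fell by 0.40 ± 0.06, or 1.32-fold (adjusted p = 0.0145). It read 11.52 and 11.60 in HCT116, then 10.99 and 11.13 with coculture. The Hke3 values were 11.54 and 11.57, then 11.22 and 11.27, so coculture and other arrays did not overlap. FKBP4, the immunophilin FKBP52 of steroid receptor complexes, fell by 0.32 ± 0.07, or 1.25-fold (adjusted p = 0.0301). It read 10.99 and 11.03, then 10.68 and 10.49 in HCT116, and 11.29 and 11.14, then 11.02 and 10.97 in Hke3. The fall was within each line, and the lines together overlapped. Its 3 other bright probe sets gave -0.29 to -0.28. The remaining cochaperones did not pass: STIP1 -0.08 ± 0.12, PTGES3, the p23 protein, -0.08 ± 0.06, the HSP70-interacting protein ST13 0.07 ± 0.05 and the kinase loader CDC37 0.12 ± 0.07.

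DNAJB1, the main stress-inducible HSP40, read 11.35 and 11.41 in HCT116 and 11.03 and 11.01 with coculture. In Hke3 it read 11.40 and 11.52, then 11.27 and 11.21. No coculture array reached the lowest array without coculture. The fitted fall was 0.29 ± 0.06, or 1.22-fold (adjusted p = 0.0301, lower in 4 of 4 pairs), and its other bright probe set gave -0.11. DNAJA1, another HSP40, differed by -0.28 ± 0.09 without passing (adjusted p = 0.0837). DNAJA2 (-0.01 ± 0.05), DNAJB4 (-0.06 ± 0.08) and DNAJB6, which holds back aggregation of polyglutamine proteins (0.04 ± 0.09), were nearer to 0.

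The HSP90 genes themselves did not pass: HSP90AA1, the inducible form, differed by -0.15 ± 0.06 and HSP90AB1, the constitutive form, by -0.17 ± 0.07. The BAG exchange factors also did not pass, with BAG2, an inhibitor of the ubiquitin ligase CHIP, at -0.17 ± 0.05, BAG3, a stress-induced autophagy factor, at -0.22 ± 0.08 and BAG1 at -0.05 ± 0.06. All 7 measured TRiC subunits had fitted differences below 0, from -0.17 ± 0.06 for CCT7 to -0.06 ± 0.05 for CCT4, and none passed. Among the small heat shock proteins, which hold unfolding clients, HSPB1 differed by 0.07 ± 0.09 and HSPB8 by 0.01 ± 0.13. HSPB11, better known as a part of intraflagellar transport, differed by -0.29 ± 0.08 (adjusted p = 0.0562). HSF1 messenger RNA differed by -0.09 ± 0.06. The calls other than HSPH1 depended on single arrays, mostly those of HCT116: 1 call was left on dropping either HCT116 array labelled with vitamin D3. With a block of the other 2 factors HSPH1 and CHORDC1 passed, while HSPE1 (adjusted p = 0.0506), FKBP4 (0.0697) and DNAJB1 (0.0712) did not. There were 2 calls without either of the other HCT116 arrays and 4 without any 1 of the Hke3 arrays. Over the 8 fits that left out an array, FKBP4 and DNAJB1 passed in 2 each.

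**Figure D2:**
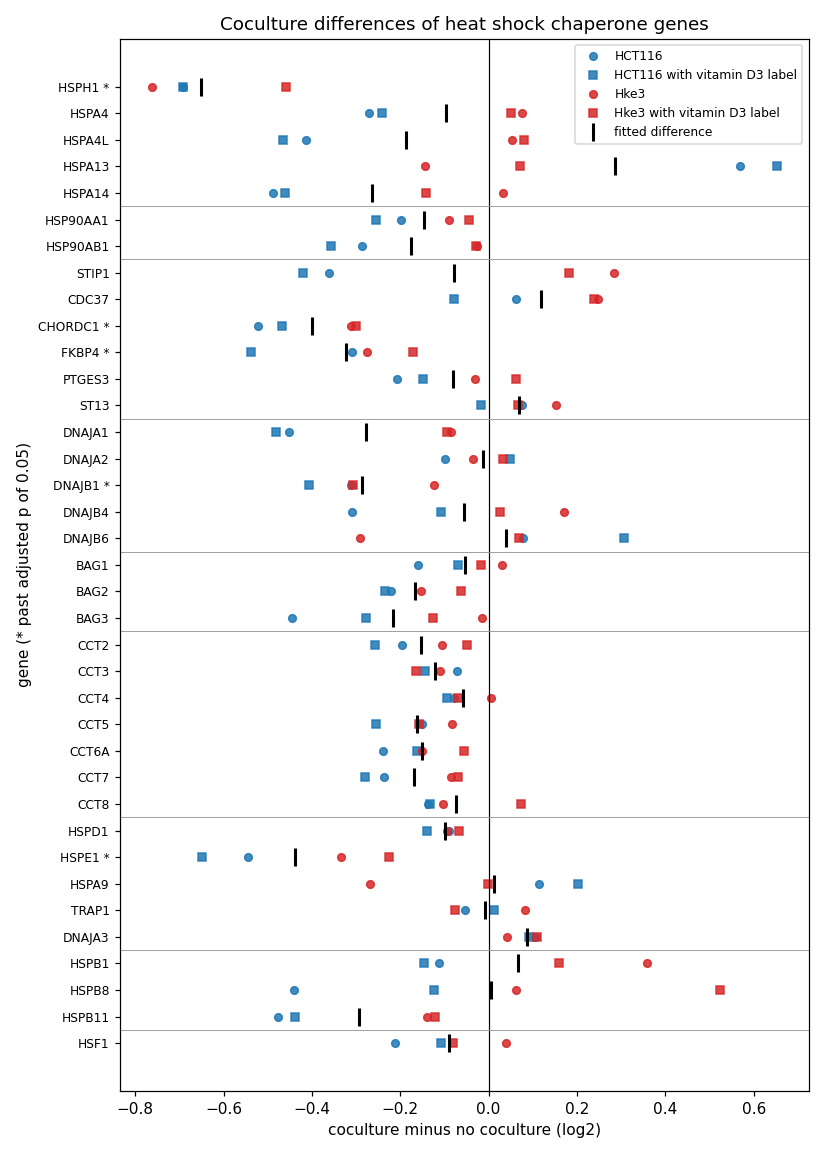
Points are the log2 difference, coculture minus no coculture, in each of the 4 pairs of arrays (blue HCT116, red Hke3, squares for the pair labelled with vitamin D3), for the 37 genes grouped by role; black bars are fitted differences and stars mark the 5 genes past an adjusted p of 0.05. For HSPH1, HSPE1, CHORDC1, FKBP4 and DNAJB1 all 4 points lie left of 0, and for HSPA13 the HCT116 points lie far right of the Hke3 points.

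Promoter sequences were read for the letters that HSF1 binds, because HSF1 can switch many of these genes on. In RefSeq's GRCh38.p14 promoters, the 250 bases before each start, the full heat shock element, GAANNTTC followed by NNGAA on either strand, was in 155 of 35116 windows (0.441%) and in 6 of the 49 windows of the 35 chaperone genes matched by symbol (12.2%). The shorter GAANNTTC, contained in that element, was in 5.78% of all windows and 13 of the 49 (26.5%). Its other arrangement, TTCNNGAA, was in 6.62% and 8 of the 49 (16.3%). CCAAT, the motif of another factor, was in 32.0% and 14 of the 49 (28.6%). The 35 include HSPA8, TCP1, AHSA1 and HSF2, which were not analysed here, and windows of the same gene can overlap. By gene, 6 of the 35 held the full element, HSPA8 among them. Of the 5 genes that fell with coculture 4 were matched, and 1 of them, CHORDC1, held the full element. The window is chr11:90223050-90223299 on the minus strand and is shown whole because its 3 overlapping elements, in capitals, lie 60 to 38 bases before the start.
CHORDC1: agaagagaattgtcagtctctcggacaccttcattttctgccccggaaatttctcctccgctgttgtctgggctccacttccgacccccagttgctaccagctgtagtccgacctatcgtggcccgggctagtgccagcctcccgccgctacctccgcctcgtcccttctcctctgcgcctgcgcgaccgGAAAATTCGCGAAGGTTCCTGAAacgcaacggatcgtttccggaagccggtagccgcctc

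DNAJB1 held only the shorter motif, at 2 places on the minus strand before 1 of its 3 starts, chr19:14518462-14518479 and chr19:14518432-14518449. They are shown, with the motif in capitals, beside the elements of genes that did not pass with coculture.
DNAJB1, farther: gggcgGAAGGTTCtggag
DNAJB1, nearer: ctctgGAAGCTTCcgccg
HSP90AA1, chr14:102087115-102087137, minus strand: ggttcTTCCGGAAGGTTCgggag
HSP90AB1, chr6:44247773-44247795, plus strand: gcaggTTCTGGAAGATTCatggg
HSP90AB1, chr6:44247826-44247848, plus strand: gattgTTCTGGAAGCTTCtggat
DNAJB6, chr7:157336868-157336890, plus strand: gccgaGAACCTTCGCGAAggtgg
HSPD1, chr2:197500063-197500090, minus strand: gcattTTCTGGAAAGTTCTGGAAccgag
The 5 measured genes with a full element had coculture differences of -0.40 (CHORDC1), -0.17 (HSP90AB1), -0.15 (HSP90AA1), -0.10 (HSPD1) and 0.04 (DNAJB6). HSPH1 and HSPE1, which fell furthest, held neither the full element nor the shorter ones in the windows read. HSPD1 and HSPE1 start 105 or 539 bases apart on opposite strands, by which of the HSPD1 starts is taken, and the HSPD1 element ends 294 bases before the HSPE1 start. A match in these windows is a description of the letters, and binding was not measured.

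The coculture difference itself differed between the lines for 2 of the 37 chaperones, STIP1 and HSPA4L, both lower with coculture in HCT116 and not in Hke3 (5.41%, against 4.21% of all genes tested, 1.87% more positive in Hke3 and 2.34% more negative). This comparison uses the same 8 arrays as the one above. STIP1, the adaptor HOP that joins HSP70 to HSP90, read 12.05 and 12.07 in HCT116 without coculture and 11.69 and 11.65 with it. In Hke3 it started lower, at 11.33 and 11.43, and read 11.62 and 11.61 with coculture. The 4 coculture arrays thus lay within 0.1 of each other and between the values of both lines without it. The pair differences were -0.36 and -0.42 in HCT116 and 0.28 and 0.18 in Hke3, and the difference between lines was 0.62 ± 0.09 (adjusted p = 0.0165). The other bright probe set of STIP1 gave 1.02.

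HSPA4L, an HSP110 protein best known from testis, read 9.03 and 9.07 in HCT116 without coculture and 8.61 and 8.60 with it. In Hke3 it read 8.78 and 8.83, then 8.83 and 8.91. The HCT116 pairs differed by -0.41 and -0.46 and the Hke3 pairs by 0.05 and 0.08, a difference between lines of 0.51 ± 0.09 (adjusted p = 0.0273), with 0.16 from its other bright probe set. Neither difference between lines passed after any 1 of the 8 arrays was left out, where the STIP1 value ran from 0.57 to 0.67 and the HSPA4L value from 0.47 to 0.54. The next genes by p did not pass. HSPA13 read 10.00 and 10.16 in HCT116 and 10.57 and 10.81 with coculture, against 10.45 and 10.21, then 10.31 and 10.28 in Hke3, a difference between lines of -0.65 ± 0.16 (adjusted p = 0.0691). HSPB1, which binds unfolding proteins and actin, gave 0.39 ± 0.10 (adjusted p = 0.0792).

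Of the 37 fitted differences between lines 32 were above 0, meaning a less negative or more positive value in Hke3, with a median of 0.15, where 47.0% of all genes lay below 0 with a median of 0.02. At an unadjusted p of 0.05 there were 15 of 37 (40.5%), against 21.9% of all genes. For HSPH1 the difference between lines was 0.08 ± 0.12 (adjusted p = 0.749), and for HSPE1 it was 0.32 ± 0.10 (adjusted p = 0.11). Among the TRiC subunits it ran from -0.03 for CCT3 to 0.18 for CCT7. The ACTB 3' minus 5' values given above moved further with coculture in Hke3 than in HCT116, and their part in the difference between lines was not tested.

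Fitted in each line alone, an analysis added after the data were seen, 11 chaperones passed in HCT116, where 8.42% of genes tested did. None passed in Hke3, where 1.73% did. Each of these fits used 4 arrays, or 2 pairs. Their errors therefore lean on the variance shared over genes and were nearly equal for most chaperones. In HCT116, HSPH1 (-0.69 ± 0.08), HSPE1 (-0.60 ± 0.08), CHORDC1 (-0.49 ± 0.08), HSPA14 (-0.47 ± 0.08), DNAJA1 (-0.47 ± 0.08), HSPB11 (-0.46 ± 0.08), HSPA4L (-0.44 ± 0.08), FKBP4 (-0.42 ± 0.09), STIP1 (-0.39 ± 0.08) and DNAJB1 (-0.36 ± 0.08) fell. HSPA13 rose there by 0.61 ± 0.08. In Hke3 HSPH1 had an adjusted p of 0.0562. A pass in 1 line and not in the other does not show a difference between them, which is what the comparison above tests.

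**Figure D3:**
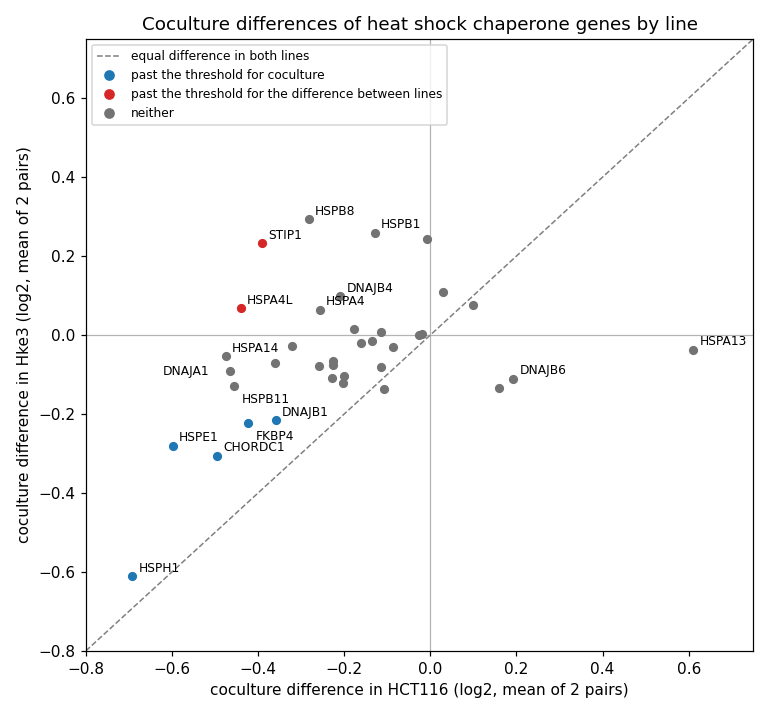
Each point is 1 of the 37 chaperone genes, with its coculture difference (log2, mean of 2 pairs of arrays) in HCT116 on the x axis and in Hke3 on the y axis; the dashed line marks equal differences, blue points passed for coculture and red points for the difference between lines. Most points, 32 of 37, lie above the dashed line, and HSPH1 lies close to it.

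Between the lines, Hke3 minus HCT116, 10 of the 37 chaperones differed, 5 higher and 5 lower. The share of 27.0% compares with 40.5% of all genes tested, 24.8% higher and 15.7% lower. When each gene's probe sets were averaged instead, 20 of 37 passed, 7 higher and 13 lower, against 43.1% of genes, so neither the balance nor the place of the share holds for both choices. DNAJB4, an HSP40 protein related to DNAJB1, read 8.23 and 8.10 in HCT116 without coculture and 7.92 and 7.99 with it, the second of each labelled with vitamin D3. In Hke3, in the same order, it read 8.89, 8.99, 9.06 and 9.02, all above every HCT116 value. It was higher in Hke3 by 0.93 ± 0.08, or 1.91-fold (adjusted p = 9.95e-05), while its other bright probe set gave 0.13. HSPB1, the HSP27 protein, read 12.12, 12.16, 12.01 and 12.01 in HCT116 and 12.47, 12.57, 12.82 and 12.73 in Hke3, again without overlap, and was higher by 0.57 ± 0.09 (adjusted p = 0.00141). DNAJB6 was higher by 0.49 ± 0.09 and CCT3, the gamma subunit of TRiC, by 0.17 ± 0.05. FKBP4 was higher by 0.31 ± 0.07 on its brightest probe set, but its 3 other bright probe sets gave -0.21 to -0.12, so its direction is uncertain.

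HSPH1 was the chaperone with the smallest p between the lines as well. It was lower in Hke3 by 0.87 ± 0.06, or 1.83-fold (adjusted p = 5.79e-05, lower in 4 of 4 pairs), and both of its other bright probe sets gave -0.89 and -0.84. BAG1, which links HSP70 to the proteasome, read 9.69, 9.58, 9.53 and 9.51 in HCT116 and 9.08, 9.21, 9.11 and 9.19 in Hke3, a fall of 0.43 ± 0.06 (adjusted p = 0.00106). DNAJA3, the mitochondrial J-domain protein also called Tid1, was lower by 0.37 ± 0.05. BAG2 was lower by 0.39 ± 0.05, but its 2 other bright probe sets gave 0.04 and 0.06. STIP1 was lower by 0.37 ± 0.12 (adjusted p = 0.0382), on average over pairs of -0.72 and -0.65 without coculture and -0.07 and -0.04 with it. The other bright probe set of STIP1 gave -1.41, so the size of this difference is uncertain. The ACTB 3' minus 5' difference separated the lines without overlap, 0.16 to 0.30 in HCT116 and 0.56 to 0.94 in Hke3. Its part in the differences between lines was not tested. CCT3 passed in 1 of the 8 fits that left out an array and STIP1 in 4.

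**Figure D4:**
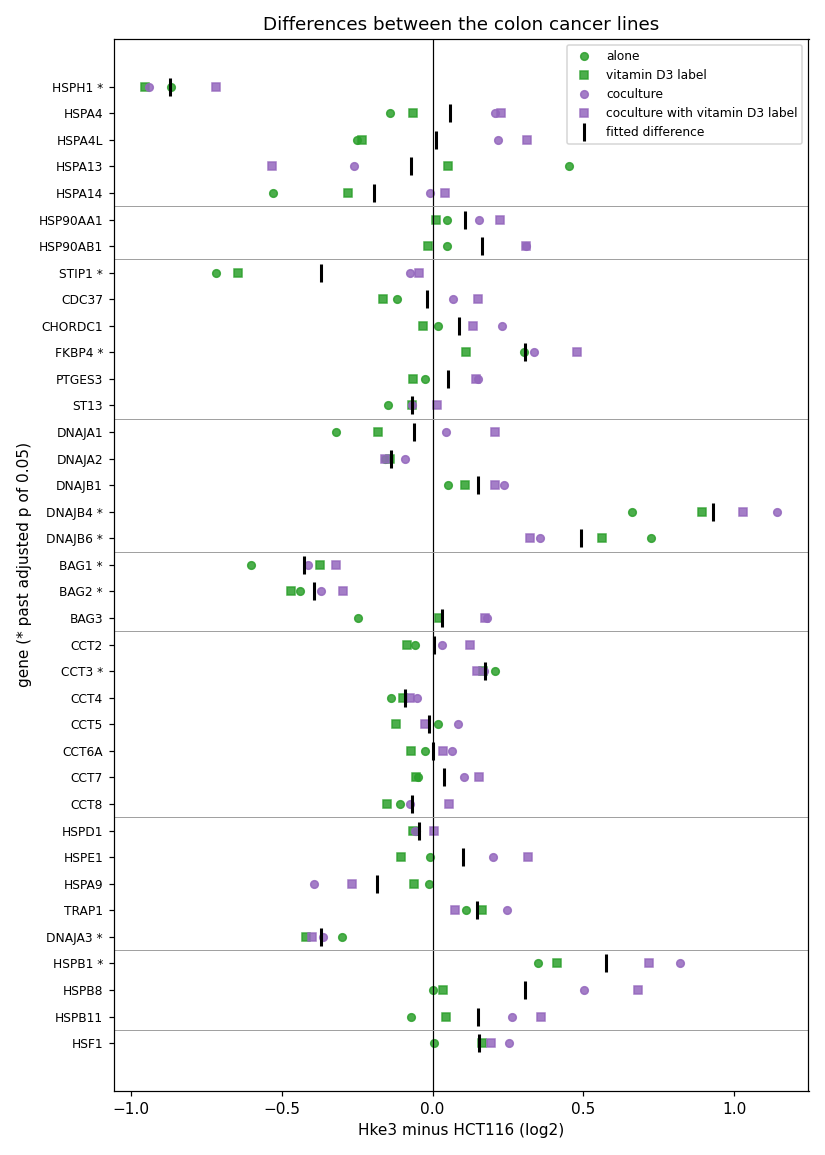
Points are the log2 difference, Hke3 minus HCT116, in each of the 4 pairs of arrays (green without coculture, purple with coculture, squares for the pair labelled with vitamin D3); black bars are fitted differences and stars mark the 10 genes past an adjusted p of 0.05. DNAJB4, DNAJB6 and HSPB1 lie right of 0 in all pairs and HSPH1, BAG1, BAG2 and DNAJA3 left of it, while for STIP1 the green points lie left of the purple ones.

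For vitamin D3, none of the 37 chaperones passed limma's test in the colon cancer lines, and 0 of 13243 genes (0%) did. At an unadjusted p of 0.05 the counts were 0 chaperones and 375 genes (2.83%), and limma with a trend and robust fitting also called 0 chaperones. The chaperones with the smallest p were TRAP1 (-0.10 ± 0.05), CCT6A (0.09 ± 0.05), CHORDC1 (0.08 ± 0.06) and FKBP4 (-0.09 ± 0.07), with an adjusted p of 1 each. Because CYP24A1 went against the labels in both cocultures, the difference was also fitted without the 4 coculture arrays, a choice made after CYP24A1 was seen. It then called 0 chaperones and 1 of 13078 genes. Whether the coculture difference itself depended on vitamin D3 was tested too, and 0 chaperones and 0 genes (0%) passed, with 0 chaperones and 652 genes at an unadjusted p of 0.05. The smallest p there belonged to DNAJB6 (0.29 ± 0.16), HSPB8, a BAG3 partner (0.39 ± 0.24), HSPH1 (0.15 ± 0.12) and DNAJB1 (-0.14 ± 0.11).

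Against the mean of the colon cancer lines without coculture, THP1 had lower levels of 25 of the 37 chaperones and higher levels of 2. The share of 73.0% that differed compares with 66.3% of the 13778 genes tested, 39.1% lower and 27.2% higher. This comparison shares the arrays without coculture with those above and has 2 residual degrees of freedom. FKBP4 read 8.99 in THP1 alone and 8.64 with vitamin D3, against 10.99 to 11.29 in the colon cancer arrays without coculture, a difference of -2.30 ± 0.10, or 4.91-fold (adjusted p = 2.67e-05). Its 3 other bright probe sets gave -2.19 to -1.57. DNAJB4 read 5.82 and 5.68 in THP1, under the 6.18 threshold for dim genes, against 8.10 to 8.99, so its difference of -2.81 ± 0.09 is approximate. HSPB8 was also dim in THP1, at 5.55 and 5.62, against 6.89 to 6.998 in the colon cancer arrays (-1.37 ± 0.08).

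Many other chaperones were lower in THP1 across roles. DNAJB1 read 10.17 and 10.35 in THP1 and 11.35 to 11.52 in the colon cancer lines, a difference of -1.16 ± 0.07 (adjusted p = 8.31e-05). TRAP1 differed by -1.19 ± 0.07, BAG3 by -1.42 ± 0.14, CHORDC1 by -0.86 ± 0.07, BAG2 by -0.73 ± 0.11 and PTGES3 by -0.66 ± 0.07. HSP90AA1 was lower by 0.76 ± 0.07 and HSP90AB1 by 0.30 ± 0.08, although 1 of the 2 other bright probe sets of HSP90AB1 pointed up. All 7 TRiC subunits were lower, CCT2 the most (-0.95 ± 0.07) and CCT8 the least (-0.25 ± 0.09, adjusted p = 0.0499), with CCT3 at -0.72, CCT7 at -0.50, CCT5 at -0.42, CCT6A at -0.35 and CCT4 at -0.34. In the mitochondrial group HSPE1 was lower by 0.54 ± 0.07, DNAJA3 by 0.49 ± 0.08 and HSPD1 by 0.32 ± 0.07. DNAJA2 (-0.52), HSPA13 (-0.48), STIP1 (-0.41) and CDC37 (-0.31) were lower too, but the other bright probe set of STIP1 gave 0.06, and 1 of the 2 others of BAG2 gave 0.10. Of the 6 fits that left out an array, HSP90AB1 and CCT8 passed in 1, the one without THP1 alone, and over all 13 alternatives CCT8 passed in 3 and HSP90AB1 in 6. HSPD1 lost its call without HCT116 alone, HCT116 with vitamin D3 or Hke3 alone, CCT4 without either HCT116 array or Hke3 with vitamin D3, and CDC37 without HCT116 with vitamin D3 or either Hke3 array.

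BAG1 differed most in the other direction and was higher in THP1, at 10.73 alone and 11.13 with vitamin D3 against 9.08 to 9.69 in the colon cancer arrays. The difference was 1.54 ± 0.12, or 2.91-fold (adjusted p = 0.000191), and its other bright probe sets gave 1.23 and 1.51. HSPA14 was higher by 0.78 ± 0.08 on its brightest probe set, while its other bright probe sets gave 0.04 and -0.23. The remaining 10 did not pass: HSPH1, at 11.23 and 11.46, lay between the lines (0.08 ± 0.09), and HSPA4, HSPA4L, HSPA9, ST13, DNAJA1, DNAJB6, HSPB1, HSPB11 and HSF1 differed by -0.40 to 0.31 on the probe sets used. The other bright probe sets of ST13 gave -1.06 and -1.08 and those of HSPA4 gave -0.12, 0.70 and -0.79, so the level of these genes in THP1 is uncertain. HSPB1 had the widest error (0.31 ± 0.21). The THP1 arrays with and without vitamin D3 form 1 pair and allow no test. The largest differences in that pair, vitamin D3 minus alone, were in HSPB1 (13.04 to 12.24) and HSPA9 (12.04 to 12.56). Then came BAG1 (0.40), BAG3 (0.40), BAG2 (-0.37), FKBP4 (-0.35) and DNAJA2 (0.33), and the median over the 37 was -0.06, where that of all genes was -0.01.

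**Figure D5:**
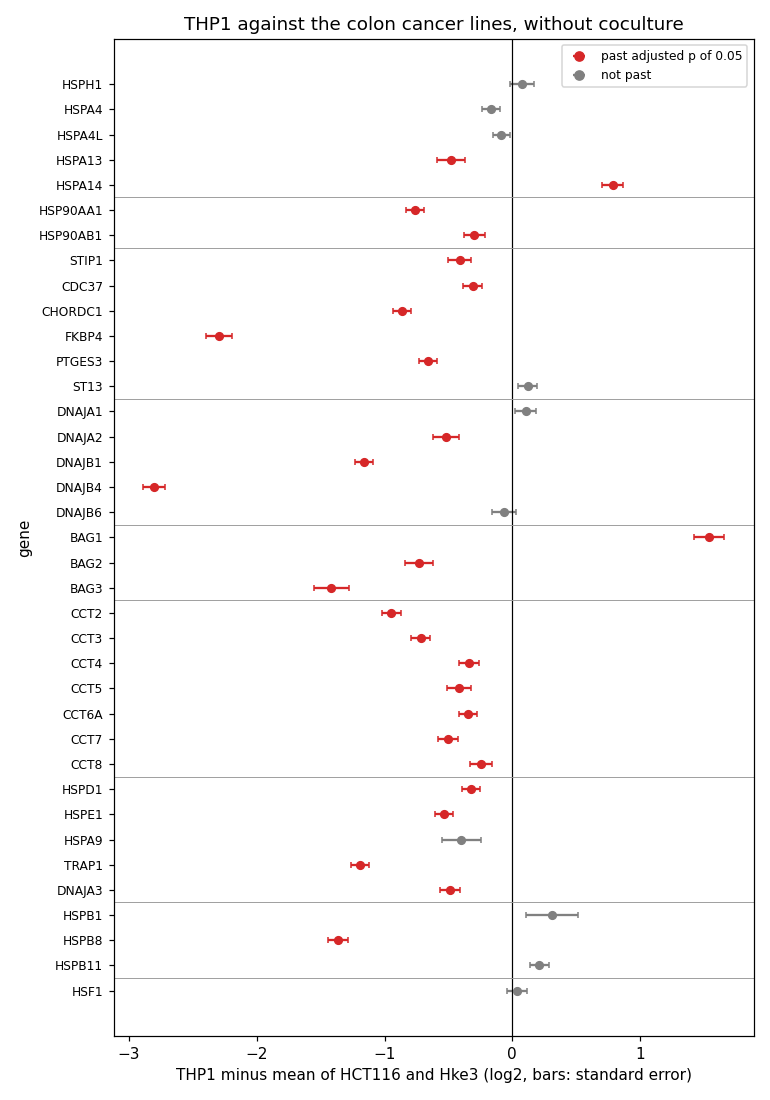
Points are the log2 difference of THP1 from the mean of HCT116 and Hke3 over the 6 arrays without coculture, with standard errors of the fit, for the 37 chaperone genes grouped by role; red points passed an adjusted p of 0.05. DNAJB4 (-2.81) and FKBP4 (-2.30) lie farthest left and BAG1 (1.54) farthest right, and all 7 TRiC subunits lie left of 0.

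Other chaperone genes outside the 41 gave 5 calls with coculture, where 7.82% of all genes tested passed. Of 20 further J-domain genes tested 1 fell, DNAJC9, a histone chaperone (-0.34 ± 0.06, adjusted p = 0.0177). Of 16 further HSP90 and HSP70 cochaperones NUDC, a dynein regulator, fell (-0.27 ± 0.05) and PIH1D1, an R2TP subunit, rose (0.23 ± 0.05), a share of 12.5%. Of 17 chaperones of the endoplasmic reticulum, 2 fell, SDF2L1 (-0.56 ± 0.08) and the calcium-binding CALR (-0.24 ± 0.06), a share of 11.8%, and 10 of the 17 were above 0. No call was made among 4 further HSP70 genes, 2 further small heat shock proteins, 7 prefoldin and chaperonin cofactors, 10 mitochondrial import, chaperone and protease genes and 3 HSF genes and regulators. HSPA1A and HSPA1B, the main inducible HSP70 genes, share their probe sets and were left out.

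In the difference of coculture between lines 4.21% of all genes passed, 1.87% more positive and 2.34% more negative in Hke3. Of the 10 mitochondrial genes 2 were more positive in Hke3, the import cofactor GRPEL1 (0.46 ± 0.10) and the unfoldase CLPX (0.47 ± 0.10). GRPEL1 read 11.47 and 11.46 in HCT116, then 11.20 and 11.22 with coculture, and in Hke3 10.94 and 10.94, then 11.08 and 11.22. Of the 17 chaperones of the endoplasmic reticulum, 3 went the other way, HYOU1, an HSP110 relative (-0.79 ± 0.13), the disulfide isomerase PDIA3 (-0.77 ± 0.12) and DNAJC10 (-0.67 ± 0.12). HYOU1 read 10.61 and 10.74 in HCT116, then 11.16 and 11.22 with coculture, and in Hke3 11.29 to 11.46, then 11.17 and 11.04. HYOU1 was thus higher with coculture in both HCT116 pairs, where STIP1 and HSPA4L were lower. The other lists of further chaperone genes gave no call in this comparison.

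Between the lines, where 40.5% of all genes differed, the further J-domain genes gave 10 of 20 calls, 3 higher and 7 lower in Hke3, with DNAJC7, a cochaperone of HSP70 and HSP90, at -1.08 ± 0.09, DNAJC5 at 0.55 ± 0.06, DNAJC21 at -0.40 ± 0.06 and DNAJB2 at 0.81 ± 0.13. The further cochaperones gave 7 of 16, 4 higher and 3 lower, among them FKBP5, the relative of FKBP4 (-0.54 ± 0.06), BAG6 (0.54 ± 0.06), the ubiquitin ligase STUB1 (0.40 ± 0.06) and TOMM34 (0.30 ± 0.05). The mitochondrial genes gave 6 of 10, 1 higher and 5 lower, with the protease AFG3L2 at -0.41 ± 0.06, the protease HTRA2 at 0.29 ± 0.05, YME1L1 at -0.32 ± 0.06 and HSCB at -0.26 ± 0.07. The endoplasmic reticulum chaperones gave 7 of 17, 5 higher and 2 lower, with PDIA4 at 0.65 ± 0.07, SDF2L1 at -0.75 ± 0.08, DNAJC3 at 0.38 ± 0.06 and CALR at 0.33 ± 0.06. Prefoldin and chaperonin cofactors gave 2 of 7, both lower, PFDN2 (-0.33 ± 0.10) and TXNDC9 (-0.16 ± 0.05). HSPA12A (0.35 ± 0.05) was the 1 of 4 further HSP70 genes and HSBP1L1 (0.23 ± 0.07) the 1 of 3 HSF regulators, both higher, and neither of the 2 further small heat shock proteins passed.

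In THP1 against the colon cancer lines, where 66.3% of all genes differed, the further J-domain genes gave 13 of 20 calls (65.0%), 5 higher and 8 lower, with DNAJC6, a clathrin uncoating factor, at -4.40 ± 0.07, DNAJC15 at 1.19 ± 0.08, DNAJC7 at 0.95 ± 0.07 and DNAJB2 at -1.39 ± 0.13. The further cochaperones gave 14 of 16, 4 higher and 10 lower, with NUDC at -1.04 ± 0.08, FKBP5 at 0.98 ± 0.08, TTC4 at -0.95 ± 0.08 and CDC37L1 at -0.86 ± 0.07. FKBP5 and FKBP4 thus stood on opposite sides, FKBP5 higher in THP1 and FKBP4 lower. The mitochondrial genes gave 7 of 10, 2 higher and 5 lower, with GRPEL2 at -1.59 ± 0.09, CLPB at 1.25 ± 0.09, GRPEL1 at -0.96 ± 0.08 and HSCB at -0.52 ± 0.09. The endoplasmic reticulum chaperones, unlike the TRiC subunits, were divided, with 8 of 17 higher and 5 lower, among them PDIA6 (1.13 ± 0.08), PDIA4 (-0.79 ± 0.08), CALR (0.59 ± 0.08) and CRELD2 (0.52 ± 0.08). Prefoldin and chaperonin cofactors gave 6 of 8, 2 higher and 4 lower, with TXNDC9 at 1.495 ± 0.09, PFDN2 at -1.04 ± 0.08, PFDN4 at -0.78 ± 0.09 and CCT6B at 0.54 ± 0.07. HSPA12A (-3.43 ± 0.11) and HSPA6 (0.40 ± 0.13) were the 2 of 5 further HSP70 genes and HSBP1L1 (-2.57 ± 0.10) and HSBP1 (-1.25 ± 0.09) the 2 of 3 HSF regulators. DNAJC6 and HSPA12A in THP1, and HSPA6 and CCT6B in the colon cancer lines, lay under 6.18 log2, so the sizes of their differences are approximate.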

How the data were processed

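Gene expression in 10 cultures was measured on 1-colour Affymetrix arrays, 1 array a condition. Log2 intensities of probe sets were deposited, computed by RMA (background correction, quantile normalisation, probe summary) with the R package affy, per the submitters' processing notes, with no version given. The number of arrays limits the precision. Of 54675 probe sets, 41097 carry 1 gene symbol and 1801 with several were left out. Arrays were grouped by title. The source name of Hke3 with vitamin D3 says untreated, while its title, description and culture field say treated, and it was kept as treated.

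An additive model of coculture, vitamin D3 and cell line was fitted to the 8 colon cancer arrays (limma 3.58.1, R 4.3.3; 4 residual degrees of freedom). Interactions were added singly (3 degrees of freedom), and THP1 was compared over the 6 arrays without coculture. Genes were tested where their highest value exceeded 6.18 log2. Tests were two-sided and p-values adjusted by Benjamini-Hochberg over all genes tested. The fit was checked on simulated data. A bright probe set is one that exceeds 6.18 log2.

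Every chaperone was accounted for. The text names those past the threshold, or the 4 with the smallest p where fewer passed, and up to 4 past the threshold from each further list. The chaperones and lists were chosen with earlier results of these data known. Alternatives were other filters, the mean of probe sets, each probe set alone, median centring, cyclic loess, a block of the other factors, eBayes with trend and robust fitting, dropping each array in turn and a model without vitamin D3 labels. Fits in each line alone and without the coculture arrays were added after the data were seen. Promoters were from RefSeq, GRCh38.p14. Plots used Python 3.11.15 and matplotlib 3.10.9.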

Additional observations from a re-analysis of the deposited data

Results flagged for a closer look

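The coculture difference of STIP1 was 0.62 log2 more positive in Hke3 than in HCT116, and that of HSPA4L 0.51 log2, both singled out because the interaction of coculture and cell line passed limma's test at an adjusted p of 0.05 (0.0165 and 0.0273). STIP1 was lower with coculture in both HCT116 pairs and was higher in both Hke3 pairs. HSPA4L was lower in both HCT116 pairs and differed by 0.05 and 0.08 in the Hke3 pairs. Neither passed after any 1 of the 8 arrays was left out.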

How the results depend on the processing

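Every condition has 1 array, so in the 8 colon cancer arrays each factor's difference rests on 4 pairs of arrays. The errors rest on how the arrays departed from the fitted model. The labels give no replicate numbers, so pairing was by the other 2 factors. Of 5 chaperones that fell with coculture, the count was 8 with trend and robust fitting, 2 with a block of the other 2 factors (HSPH1 and CHORDC1), 11 in HCT116 alone, 0 in Hke3 alone and 1 to 4 with an array left out. HSPH1 passed in 8 of 8 such fits, CHORDC1 in 6, HSPE1 in 4 and DNAJB1 and FKBP4 in 2 each. The 2 differences between lines became 1 with no filter, 7 with a filter at the 75th percentile, 10 with trend and robust fitting and 0 in each of 8 fits that left out an array. For Hke3 against HCT116, 20 chaperones passed when a gene's probe sets were averaged, 7 higher and 13 lower, and FKBP4 reversed to -0.043 (adjusted p = 0.697); median-centred arrays gave 8 higher and 5 lower, and 8 to 11 passed with an array left out. In THP1, 22 to 28 passed with an array left out, and cyclic loess gave 5 higher and 22 lower. The median vitamin D3 difference in THP1 was -0.0537 with centring and -0.0418 with cyclic loess. Vitamin D3 called 0 chaperones in every alternative run. The causes were not tested. HSPD1 and the HSP90 genes lie near the top of the range and DNAJB4 and HSPB8 in THP1 near background.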
